A study of Mus musculus with 6 samples.

Results

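The genes described here make, sense, move and release cholesterol. There are 32 of them among the 18743 genes that the libraries list, and they were taken by their known roles: 18 enzymes of synthesis from acetyl-CoA to cholesterol, 5 genes that control the SREBP transcription factors, 4 genes of uptake, transport and storage, and 5 genes of efflux. Each of the 32 is listed in every library. The libraries come from primary oligodendrocyte progenitor cells (OPCs), the glial precursors that become myelinating oligodendrocytes. Wild-type C57BL/6 pups, taken between postnatal days 0 and 2 and labelled as day 1, gave the cortex, and cells were pulled out with beads against CD140 (PDGFRα) and grown for 3 days. All groups share that strain, genotype, source and culture. The vehicle group (n = 3) received 0.25% DMSO and the hemin group (n = 3) received 50 µM hemin, the oxidised form of heme, each for 12 h. The title of the series places the work in a study of ferroptosis after bleeding in the brain.

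Cells build cholesterol from acetyl-CoA through mevalonate, isoprenoids, squalene and lanosterol. When membranes of the endoplasmic reticulum run low in sterol, SCAP carries the SREBP precursors to the Golgi, where proteases free the transcription factor, and INSIG proteins hold SCAP back when sterol is plentiful. Surplus cholesterol is esterified or exported, the latter under liver X receptors (LXRs), which respond to oxysterols. Cells of the oligodendrocyte lineage are known for a heavy use of this pathway, since myelin is rich in cholesterol that is made within the brain.

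The libraries held 6339966 to 6523639 expected counts over annotated genes. FPKM, used below for levels, is scaled by length and by library size, and fold changes come from counts scaled by TMM factors (0.946 to 1.034). The treatment showed in Hmox1, the heme oxygenase, at 21.5 ± 6.61 FPKM under vehicle and 2600 ± 394 under hemin (SD, n = 3). OPC markers summed to 1141 to 1377 FPKM under vehicle and 340 to 511 under hemin, so the labelled cell type was present in both groups. Markers of other cells were present too. Those of astrocytes summed to 492 to 565 FPKM under vehicle and 401 to 534 under hemin, those of neurons to 172 to 206 and 87.6 to 134, those of microglia to 15.8 to 26.2 and 35.2 to 41.5, those of oligodendrocytes to 34.5 to 58.7 and 26.9 to 39.5, those of mural cells and fibroblasts to 5.26 to 11.4 and 7.74 to 17.6, and those of endothelium to 1.23 to 1.77 and 5.02 to 6.03. In these bulk samples fewer cells of a type and less RNA per cell cannot be told apart. The labels do not say whether replicates are separate cultures, so each p-value reflects the spread among these libraries alone, and that spread may be technical. Hemin replicate 1 stood further from the other hemin libraries (Pearson's r across genes, which are not independent replicates, of 0.954 and 0.96) than those did from each other (0.968), and results that rest on it are given with and without it.

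Promoters of 4 synthesis enzymes are shown because they cover the first steps and both directions of change described below. Hmgcs1 makes HMG-CoA and Acat2 makes its precursor acetoacetyl-CoA, while Cyp51 and Hsd17b7 act late on the sterol rings. Each is the 250 bases before the gene's start, read 5′ to 3′ on the gene's strand from RefSeq's table for build GRCm38.p6. They lie at chr13:119690101-119690350 on the plus strand (Hmgcs1), and on the minus strand at chr5:4104698-4104947 (Cyp51), chr1:169969206-169969455 (Hsd17b7) and chr17:12960726-12960975 (Acat2). Capitals mark, on either strand, the sterol element core TCACCCCAC to which SREBP binds, and the boxes CCAAT and GGGCGG of its usual partners NF-Y and Sp1.
Hmgcs1: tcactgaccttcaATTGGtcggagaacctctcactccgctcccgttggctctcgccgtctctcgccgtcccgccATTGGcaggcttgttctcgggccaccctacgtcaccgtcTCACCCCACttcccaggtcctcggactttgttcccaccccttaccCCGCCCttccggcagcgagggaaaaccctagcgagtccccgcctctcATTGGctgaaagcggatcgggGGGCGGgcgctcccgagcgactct
Cyp51: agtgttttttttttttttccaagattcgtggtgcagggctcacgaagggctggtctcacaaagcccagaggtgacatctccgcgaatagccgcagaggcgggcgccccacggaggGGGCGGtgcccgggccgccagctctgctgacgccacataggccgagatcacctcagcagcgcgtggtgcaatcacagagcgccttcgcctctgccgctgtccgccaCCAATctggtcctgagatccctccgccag
Hsd17b7: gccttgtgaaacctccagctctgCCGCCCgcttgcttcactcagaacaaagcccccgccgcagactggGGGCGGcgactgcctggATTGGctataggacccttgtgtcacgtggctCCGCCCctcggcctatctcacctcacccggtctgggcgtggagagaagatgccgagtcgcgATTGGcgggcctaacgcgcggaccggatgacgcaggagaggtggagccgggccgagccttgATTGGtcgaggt
Acat2: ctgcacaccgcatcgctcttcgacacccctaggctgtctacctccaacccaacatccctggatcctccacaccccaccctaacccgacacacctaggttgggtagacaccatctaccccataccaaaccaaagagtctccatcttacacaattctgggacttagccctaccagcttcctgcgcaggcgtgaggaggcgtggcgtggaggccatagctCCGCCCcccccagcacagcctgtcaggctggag
Hmgcs1 holds the sterol element core once, with 3 CCAAT and 2 GGGCGG boxes in the stretch shown. Hsd17b7 holds 3 of each box, Cyp51 holds 1 of each, and Acat2 holds 1 GGGCGG and 0 CCAAT boxes.

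RefSeq's table had promoter windows of 300 bases, which add the 50 bases after the start, for 26 of the 32 genes. Among 18 windows of 15 synthesis enzymes, 14 (77.8%) held CCAAT and 15 (83.3%) held GGGCGG, against 37.4% and 35.7% of all 32851 windows in the table. Those 32851 windows belong to 27025 genes, more than the 12779 tested here, and no share was taken over the tested genes alone. The boxes were not confined to synthesis: of 10 windows of SREBP control genes, 5 held CCAAT and 8 held GGGCGG, and both windows of uptake, transport and storage genes held each. The 7 windows of 4 efflux genes held CCAAT 0 times and GGGCGG in 1. The core TCACCCCAC occurred in 1 synthesis window, that of Hmgcs1, and in 0.551% of all windows, and its looser form TCACNCCAC, which includes it, in the same 1 and in 1.24%. The E-box CACGTG was in 3 of the 18 synthesis windows (16.7%, against 7.15% of all) and the NRF2 element TGACNNNGC in 4 (22.2%, against 12.4%). A match only says that these letters are present. A missing match does not show that a binding site is absent, since only the forms named were searched.

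The enzymes of cholesterol synthesis did not move as one block under hemin. By edgeR's quasi-likelihood test, adjusted after Benjamini and Hochberg over 12779 genes, of the 18 3 rose (Cyp51, Hsd17b7 and Pmvk), 2 fell (Acat2 and Sqle) and 13 did not pass an adjusted p of 0.05. That is 27.8% called, against 31.9% of all genes tested (16.2% higher and 15.7% lower), so the share is near the background. Of all genes called, 50.8% were higher, or 39.9% where libraries were scaled by their totals alone. The median log2 fold change of the 18 enzymes was 0.03, against 0.00 over all genes tested. The FPKM of these enzymes added up to 1399, 1304 and 1212 in the vehicle libraries, by replicate number, and in the hemin libraries to 956, 1512 and 1516. The sum of hemin replicate 1 lay below the vehicle range and those of the other two hemin libraries above it.

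**Figure D1:**
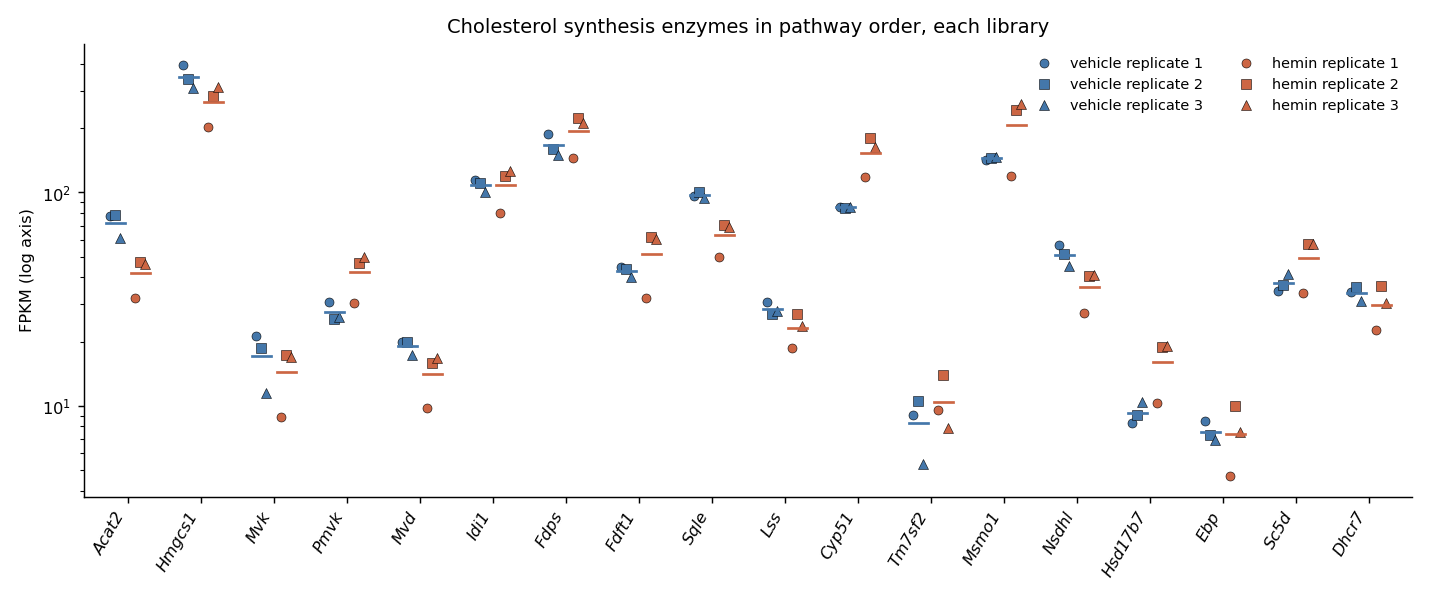
FPKM (log axis) of the 18 synthesis enzymes in pathway order; each point is a library, blue for vehicle and orange for hemin, with the shape giving the replicate and the bar the group mean. Cyp51 stands above the vehicle libraries in each hemin library, Acat2 and Sqle stand below, and hemin replicate 1 (orange circle) is the lowest hemin library for most enzymes.

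Cyp51 (Entrez gene 13121), the lanosterol demethylase and itself a heme-containing cytochrome P450, had the largest fitted rise of the set with all 6 libraries. Hsd17b7 came out above it without hemin replicate 1 (log2 fold change 1.05 against 1.03) and without vehicle replicate 3 (0.95 against 0.92). Cyp51 measured 85.4, 84.8 and 85.5 FPKM under vehicle, and under hemin 118, 181 and 163, so the groups do not overlap. The rise was 1.86-fold (log2 fold change 0.90 ± 0.14, SE, edgeR adjusted p = 0.00348), and it passed in each of 15 alternative settings. Exons of Akap9 overlap Cyp51 on the opposite strand. The sources used here do not give strand for the libraries, and Akap9 was at 9.67 to 10.5 FPKM under vehicle and 9.35 to 12.6 under hemin.

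Hsd17b7 (Entrez gene 15490), a sterol ketoreductase that works in a later removal of methyl groups, measured 8.35, 9.09 and 10.4 FPKM under vehicle, and under hemin 10.3, 18.8 and 19.0. Hemin replicate 1 lay within the vehicle range and the other two above it. The rise was 1.78-fold (0.83 ± 0.22 on the log2 scale, SE, edgeR adjusted p = 0.0259). Pmvk (Entrez gene 68603), the kinase that turns phosphomevalonate into its diphosphate, measured 30.5, 25.4 and 26.2 FPKM under vehicle, and under hemin 30.4, 46.8 and 49.8, again with only hemin replicate 1 inside the vehicle range. Pmvk rose 1.60-fold (0.68 ± 0.18, SE, edgeR adjusted p = 0.0275). Leaving out 1 library ended the call of Hsd17b7 in 4 of 6 cases and that of Pmvk in 5 of 6, and limma on FPKM called neither. Over 15 alternative settings Hsd17b7 was lost in 7 and Pmvk in 10. In TMM-scaled counts all hemin libraries lay above the vehicle libraries for both genes.

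Acat2 (Entrez gene 110460), the cytosolic thiolase that joins acetyl-CoA units at the entry of the pathway, measured 77.2, 78.3 and 61.2 FPKM under vehicle, and under hemin 32.1, 47.2 and 46.4. All hemin libraries lie below all vehicle libraries. The fall was 1.67-fold (log2 fold change -0.74 ± 0.16, SE, edgeR adjusted p = 0.0112). Its near-identical paralog Acat3, with which reads could be shared, stood at 16.4 to 18.7 FPKM under vehicle and 18.3 to 19.3 under hemin (edgeR adjusted p = 0.331), so the call of Acat2 is uncertain to that extent.

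Sqle (Entrez gene 20775), squalene epoxidase, the oxygen-dependent enzyme that limits the second part of the pathway, measured 96.3, 101 and 94.3 FPKM under vehicle, and under hemin 49.9, 70.01 and 68.8. The groups do not overlap here either. The fall was 1.49-fold (-0.58 ± 0.12, SE, edgeR adjusted p = 0.0106). Leaving out vehicle replicate 1 or 2 ended the call of Acat2 (edgeR adjusted p = 0.0522 and 0.0533), and leaving out vehicle replicate 2 ended that of Sqle (0.0549). Of 10 markers of OPCs, 9 were tested and all 9 were called lower under hemin, where 15.7% of all genes tested were lower. The part of these markers in the falls of Acat2 and Sqle was not tested.

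The other enzymes of the mevalonate and isoprenoid steps did not pass. Hmgcs1, the synthase that forms HMG-CoA, was the most abundant enzyme of the set per length, at 398, 340 and 309 FPKM under vehicle and 204, 282 and 311 under hemin, with hemin replicate 3 inside the vehicle range (edgeR adjusted p = 0.122). Mvk, mevalonate kinase, averaged 17.2 ± 5.09 and 14.4 ± 4.76 FPKM (SD, n = 3). Mvd, the decarboxylase that gives isopentenyl diphosphate, measured 20.01, 20.0 and 17.4 under vehicle and 9.72, 15.9 and 16.8 under hemin, without overlap. Idi1, the isomerase of that product, was at 114, 110 and 101 FPKM under vehicle and 80.2, 119 and 126 under hemin. Fdps, which makes farnesyl diphosphate, was at 189, 159 and 150 under vehicle and 144, 224 and 212 under hemin. Fdft1, which joins farnesyl units into squalene, was at 44.5, 43.9 and 40.4 under vehicle and 32.2, 61.7 and 60.8 under hemin. In FPKM, these 3 genes had hemin replicate 1 below the vehicle range and the other two hemin libraries above it. Exons of Fdft1 overlap those of Ctsb, a lysosomal protease on the opposite strand that rose by 0.63 on the log2 scale (edgeR adjusted p = 0.01).

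The ring-forming and late enzymes likewise ranged on both sides of 0. Lss, which folds squalene epoxide into lanosterol, was at 30.6, 26.97 and 27.8 FPKM under vehicle and 18.6, 26.93 and 23.6 under hemin, which do not overlap in FPKM but do in TMM-scaled counts. Nsdhl, a decarboxylating dehydrogenase of the demethylation steps, was at 56.5, 51.4 and 45.2 FPKM under vehicle and 27.3, 40.4 and 41.0 under hemin. Its groups do not overlap, yet it missed the threshold (edgeR adjusted p = 0.0635; DESeq2 adjusted p = 0.0334). Over all 31 tested genes of the set, 10 had groups of FPKM that do not overlap, 3 higher and 7 lower, against 49.1% of all genes tested.

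Msmo1, the methyl sterol oxidase of the demethylation steps, had the lowest ratio of hemin replicate 1 to the other hemin libraries among the enzymes, 0.503. It measured 141, 145 and 147 FPKM under vehicle, and under hemin 120, 244 and 259, which puts 1 hemin library below and the other two far above the vehicle range (0.57 ± 0.24 on the log2 scale, SE, edgeR adjusted p = 0.117). Sc5d, the desaturase before the last reductions, was at 34.4, 37.0 and 41.6 under vehicle and 33.7, 57.3 and 57.4 under hemin, the same arrangement in FPKM, while in TMM-scaled counts hemin replicate 1 lay inside the vehicle range (edgeR adjusted p = 0.121). Tm7sf2, a sterol reductase whose exons overlap Vps51 on the same strand, averaged 8.33 ± 2.70 and 10.4 ± 3.10 FPKM, Ebp, a sterol isomerase, 7.57 ± 0.788 and 7.38 ± 2.64, and Dhcr7, the reductase that makes cholesterol itself, 33.7 ± 2.50 and 29.7 ± 6.96 (SD, n = 3).

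Hemin replicate 1 was the lowest of the hemin libraries for 17 of the 18 synthesis enzymes (94.4%), Tm7sf2 being the exception. Over all genes tested it was the lowest for 36.3%, and for 38% of genes with a mean of at least 5 FPKM. It was also the lowest for 4 of 5 SREBP control genes, 2 of 4 genes of uptake, transport and storage, and 0 of 4 tested efflux genes. Over the related lists described below the share ranged from 0% to 61.5%. In TMM-scaled counts its level for the synthesis enzymes was 0.503 to 0.921 of the mean of the other two hemin libraries, with a median of 0.694, against a median of 1.02 over all genes. Hmox1 was 1.35 times as high in hemin replicate 1 as in the mean of the other two, and the OPC markers summed to 340 FPKM there against 511 and 426. The part of these values in the spread of the enzymes was not tested.

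**Figure D2:**
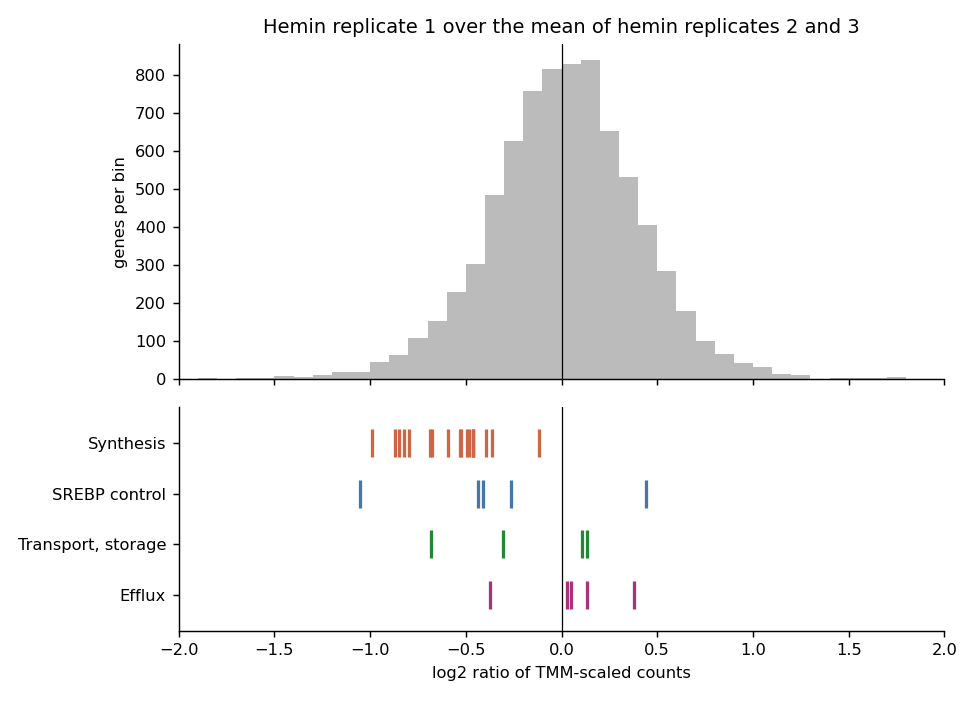
Log2 ratio of hemin replicate 1 to the mean of hemin replicates 2 and 3 in TMM-scaled counts; the upper panel counts genes of at least 5 mean FPKM per bin and each tick below is 1 cholesterol gene. All 18 synthesis enzymes lie left of 0, while the bulk of genes centres near it and 4 of 5 efflux genes lie to its right.

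Hemin replicate 1 was the lowest hemin library for 17 of the 18 synthesis enzymes, so leaving it out raises their fitted changes through that choice. The fit without it rests on hemin replicates 2 and 3 alone in that group. In this fit 7 synthesis enzymes were called higher and 2 lower, where 34.8% of all genes were called. The 7 were Pmvk, Fdps, Fdft1, Cyp51, Msmo1, Hsd17b7 and Sc5d, and the 2 were Acat2 and Sqle. Msmo1 then rose 1.77-fold (edgeR adjusted p = 0.000722), Sc5d 1.55-fold (0.00576), Fdft1 1.45-fold (0.00307) and Fdps 1.34-fold (0.0248). Acat2 and Sqle were lower in both fits, 1.52-fold and 1.38-fold without that library. The median over the enzymes moved from 0.03 to 0.22 on the log2 scale. Leaving out hemin replicate 2 or 3, or vehicle replicate 1 or 2, each left Cyp51 as the 1 enzyme called higher.

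**Figure D3:**
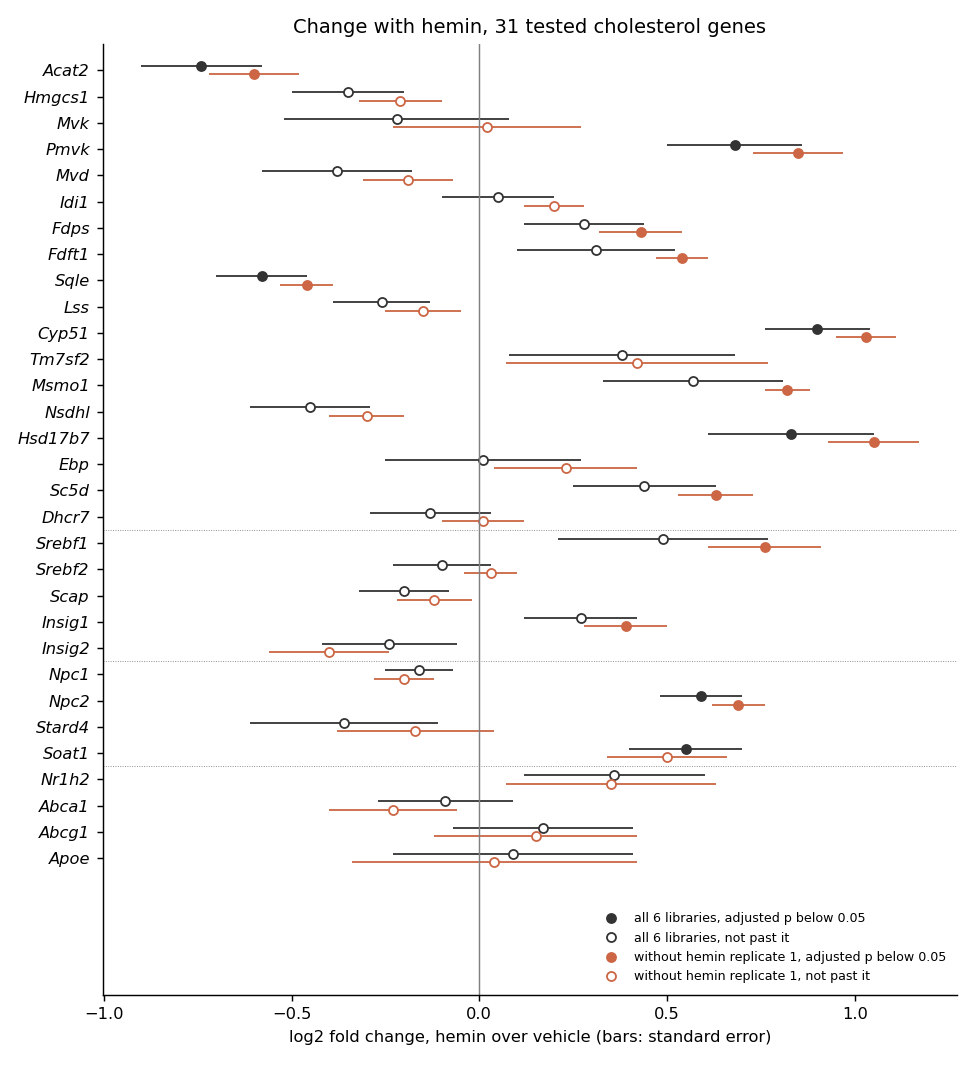
Log2 fold change of hemin over vehicle with its standard error for the 31 tested genes, from all 6 libraries (dark) and without hemin replicate 1 (orange); filled points passed an adjusted p of 0.05, and dotted lines part the groups of genes. The synthesis enzymes shift to the right without that library, and Acat2 and Sqle stay to the left of 0.

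The genes that control SREBP did not pass the test in either direction. Of 5 tested with edgeR, 0 were called, 0 had an unadjusted p below 0.05, and DESeq2 and limma on FPKM also called 0. Over all genes tested with edgeR, 31.9% were called and 5570 of 12779 had an unadjusted p below 0.05. With only 5 genes, a count of 0 says little against these shares. Srebf2, the SREBP that mainly drives cholesterol genes, measured 54.2, 51.4 and 48.4 FPKM under vehicle, and under hemin 36.6, 50.0 and 53.0 (log2 fold change -0.10 ± 0.13, SE). Scap, the sterol-sensing escort, averaged 17.5 ± 1.29 and 14.8 ± 2.09 FPKM (SD, n = 3). Srebf1, whose products mainly drive fatty acid genes and whose exons overlap Rai1 on the opposite strand, stood at 3.10, 3.02 and 3.46 FPKM under vehicle and 2.42, 4.96 and 5.65 under hemin, so hemin replicate 1 was again below and the other two above the vehicle range.

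Insig1 and Insig2, the retention proteins, pointed to opposite sides of 0 without a call. Insig1, itself a target of SREBP, was at 81.2, 90.8 and 97.2 FPKM under vehicle and 81.2, 123 and 109 under hemin (0.27 ± 0.15 on the log2 scale, SE, edgeR adjusted p = 0.207). Insig2 was at 7.0, 6.97 and 7.89 under vehicle and 6.88, 4.73 and 5.82 under hemin, all below the vehicle libraries in FPKM, while in TMM-scaled counts hemin replicate 1 lay inside the vehicle range (-0.24 ± 0.18, edgeR adjusted p = 0.357). Without hemin replicate 1, Srebf1 (1.69-fold, edgeR adjusted p = 0.0107) and Insig1 (1.31-fold, 0.0321) were called higher and the other genes of SREBP control were not. That library was the lowest hemin library for both called genes, so leaving it out raises their fitted changes through that choice.

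Insig2 was listed with 2 transcripts, which RSEM splits by estimate. The longer one of 2711 bases took 0, 7.06 and 0% of the gene's expected counts in vehicle replicates 1 to 3 and 14.1, 38.9 and 25.5% in hemin replicates 1 to 3, and the shorter one of 2475 bases took the rest. The shares do not overlap between the groups, but they rest on 0 to 10.8 counts of the longer transcript under vehicle and 21.6 to 41.0 under hemin, and no test was made. The 2 transcripts of Srebf1 gave no such order: one took 22.5 to 78.1% of its counts under vehicle and 20.2 to 44.7% under hemin. This transcript of Insig2 was singled out after its values were seen.

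Of 4 genes of uptake, transport and storage, Npc2 and Soat1 rose, and Npc1 and Stard4 did not pass, where 16.2% of all genes tested were higher. Npc2 (Entrez gene 67963), the soluble lysosomal protein that hands cholesterol on for export from the organelle, measured 26.7, 27.2 and 25.6 FPKM under vehicle, and under hemin 32.2, 42.4 and 41.6, without overlap. It rose 1.51-fold (0.59 ± 0.11 on the log2 scale, SE, edgeR adjusted p = 0.00644) and passed in each of 15 alternative settings. Microglia express Npc2, and 3 of 9 tested microglia markers rose, where 16.2% of all genes tested were higher. None of that list was at 0 throughout a group. Summed microglia markers were at 26.2, 15.8 and 22.5 FPKM in vehicle replicates 1 to 3. In hemin replicates 1 to 3 they were at 41.5, 35.2 and 39.6, highest in replicate 1, where Npc2 was the lowest of the hemin libraries. The part of these cells in the rise of Npc2, and of Soat1 below, was not tested.

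Soat1 (Entrez gene 20652), which esterifies cholesterol for storage, measured 8.23, 6.30 and 5.84 FPKM under vehicle, and under hemin 9.83, 9.59 and 9.34, also without overlap. It rose 1.46-fold (0.55 ± 0.15, SE, edgeR adjusted p = 0.0283), a call lost on leaving out vehicle replicate 2 or 3 or hemin replicate 1 or 2 (edgeR adjusted p = 0.0547 to 0.0907). The call was also lost with limma on log2(FPKM + 0.1) (limma adjusted p = 0.0539). Npc1, the membrane partner of Npc2, was at 33.2, 34.3 and 32.01 FPKM under vehicle and 28.9, 29.8 and 26.9 under hemin. Its libraries do not overlap, but the change of -0.16 ± 0.09 on the log2 scale did not pass (edgeR adjusted p = 0.196), and exons of Rmc1, which rose by 1.02 on that scale (edgeR adjusted p = 0.00194), overlap it on the opposite strand. Stard4, a cytosolic sterol carrier, averaged 7.10 ± 1.51 and 5.37 ± 1.56 FPKM (SD, n = 3).

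The efflux genes did not pass either. Of 4 tested with edgeR, 0 were called, 0 had an unadjusted p below 0.05, and DESeq2 and limma on FPKM also called 0. Over all genes tested with edgeR, 31.9% were called and 5570 of 12779 had an unadjusted p below 0.05. With only 4 genes, a count of 0 says little against these shares. Abcg1 was below the filter of 0.5 mean FPKM, so limma tested it only without that filter. Abca1, the transporter that loads cholesterol onto apolipoproteins, stood at 6.16, 6.94 and 8.84 FPKM under vehicle and 7.58, 5.75 and 6.59 under hemin (log2 fold change -0.09 ± 0.18, SE, edgeR adjusted p = 0.739). Abcg1, its partner for mature particles, was at 0.460, 0.490 and 0.470 and at 0.50, 0.460 and 0.580 FPKM, which are 24 to 26 and 24 to 30 counts. Both are known targets of LXR. Nr1h2, which encodes LXRβ, averaged 7.27 ± 1.20 and 9.02 ± 2.58 FPKM (SD, n = 3), and Nr1h3, which encodes LXRα, had 3 to 6 counts per vehicle library and 6 to 10 per hemin library, too few to enter the test.

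Apoe, the apolipoprotein that carries brain cholesterol between cells, stood at 336, 211 and 349 FPKM under vehicle and 316, 178 and 433 under hemin. Replicate 2 was the lowest in both groups, and the groups overlap throughout (0.09 ± 0.32 on the log2 scale, SE, edgeR adjusted p = 0.856). Apoe is made mostly by astrocytes and microglia. Summed astrocyte markers were at 565, 492 and 516 FPKM in vehicle replicates 1 to 3 and 441, 401 and 534 in hemin replicates 1 to 3, and summed microglia markers at 26.2, 15.8 and 22.5 and at 41.5, 35.2 and 39.6, so replicate 2 was the lowest of its group for these as well. The part of other cells in the Apoe values was not tested.

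**Figure D4:**
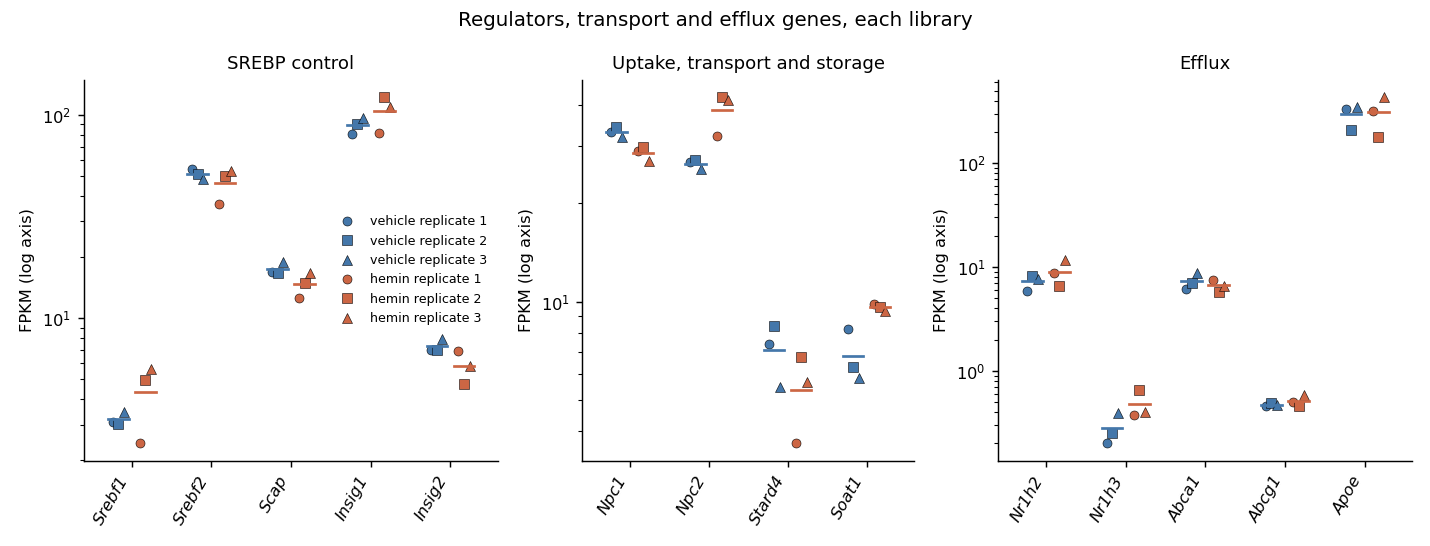
FPKM (log axes) of the genes of SREBP control, of uptake, transport and storage, and of efflux; points are libraries as in the plot of the enzymes and bars are group means. Npc2 and Soat1 are the 2 genes whose hemin libraries all lie above their vehicle libraries, and Apoe is lowest in replicate 2 of both groups.

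Related genes outside the set gave calls in both directions. Their counts stand against 31.9% of all genes called, 16.2% higher and 15.7% lower. Among 5 genes of acetyl-CoA supply, 2 rose and 2 fell (median log2 fold change 0.02). Slc25a1, which exports citrate from mitochondria, rose 1.48-fold and Acss2, which makes acetyl-CoA from acetate, 1.39-fold. Acat1, the mitochondrial thiolase, fell 1.24-fold and Mlycd, malonyl-CoA decarboxylase, 1.59-fold (edgeR adjusted p = 0.0194 to 0.049 for these 4). Each of the 4 calls was lost on leaving out 4 or 5 of the 6 libraries in turn. Over 15 alternative settings Acss2 was lost in 10, Slc25a1 in 8, Acat1 in 6 and Mlycd in 4.

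Among 11 genes of SREBP processing and sterol-regulated degradation, the 2 that passed both fell. Mbtps1, the Golgi protease that makes the first cut in SREBP, fell 1.46-fold from 28.8 ± 1.22 to 19.1 ± 1.48 FPKM, and Erlin2, which helps degrade sterol-regulated proteins in the endoplasmic reticulum, 1.58-fold from 25.5 ± 1.12 to 15.5 ± 1.82 (SD, n = 3; edgeR adjusted p = 0.00624 and 0.00654). Their hemin libraries all lie below the vehicle libraries, and both passed in each of 15 alternative settings. Of 14 genes of the sterol and isoprenoid side branches, the 1 that passed fell. This was Fntb, a subunit of protein farnesyltransferase, 1.46-fold lower (edgeR adjusted p = 0.0185), a call lost on leaving out any vehicle library or hemin replicate 2.

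Among 16 genes of lipoprotein uptake and sterol transfer, 2 rose and 2 fell (25% called, against 31.9% of all genes, median 0.20). Gramd1a, which carries cholesterol from the plasma membrane to the endoplasmic reticulum, rose 4.40-fold from 3.12 ± 0.910 to 13.4 ± 5.84 FPKM, and stood in hemin replicate 1 at 0.418 of the mean of the other two hemin libraries. Vldlr, a lipoprotein receptor, rose 2.29-fold from 6.84 ± 0.980 to 15.1 ± 3.75, and was 1.58 times as high in hemin replicate 1 as in the mean of the other two (SD, n = 3; edgeR adjusted p = 0.00564 and 0.00556). Scarb2, a lysosomal membrane protein, fell 1.35-fold (edgeR adjusted p = 0.00595) and Lrp1, an endocytic receptor, 1.36-fold (0.0452). The call of Lrp1 was lost without vehicle replicate 1 or 2 or hemin replicate 2 or 3. It was also lost with limma on FPKM and with a filter of at least 50 counts in 3 libraries, 8 of 15 alternatives in all.

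Among 7 tested genes of oxysterol synthesis and LXR partners, the 1 that passed fell. This was Rxrb, a dimer partner of LXR, which fell 1.51-fold from 8.70 ± 0.0987 to 5.52 ± 0.211 FPKM (SD, n = 3; edgeR adjusted p = 0.0127), a call lost without vehicle replicate 1 or 2.

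Of 13 LXR targets and lipid transporters, 3 rose and 4 fell (53.8% called, against 31.9% of all genes, median -0.02). Mylip, a ligase that degrades lipoprotein receptors, rose 3.45-fold from 0.843 ± 0.156 to 2.83 ± 0.514 FPKM, Lpl, lipoprotein lipase, 1.62-fold and Clu, an apolipoprotein and chaperone, 1.66-fold (edgeR adjusted p = 0.0027, 0.0057 and 0.0417). Abcg4, a sterol transporter of the brain related to Abcg1, fell 2.01-fold from 3.61 ± 0.537 to 1.74 ± 0.221 FPKM (SD, n = 3; edgeR adjusted p = 0.0071). Abca2 and Abca3, lipid transporters, and Scd2, a desaturase, fell 1.28-fold to 1.31-fold (edgeR adjusted p = 0.0147 to 0.0225). Mylip, Lpl and Abcg4 passed in each of 15 alternative settings. Clu was lost without vehicle replicate 1 or 2 or hemin replicate 2 or 3. It was also lost with limma on FPKM, without a count filter and with library totals alone, 9 of 15 alternatives in all. Abca2 was lost on leaving out any vehicle library or hemin replicate 2. Abca3 was lost on leaving out any vehicle library, and Scd2 on leaving out vehicle replicate 1 or hemin replicate 2.

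**Figure D5:**
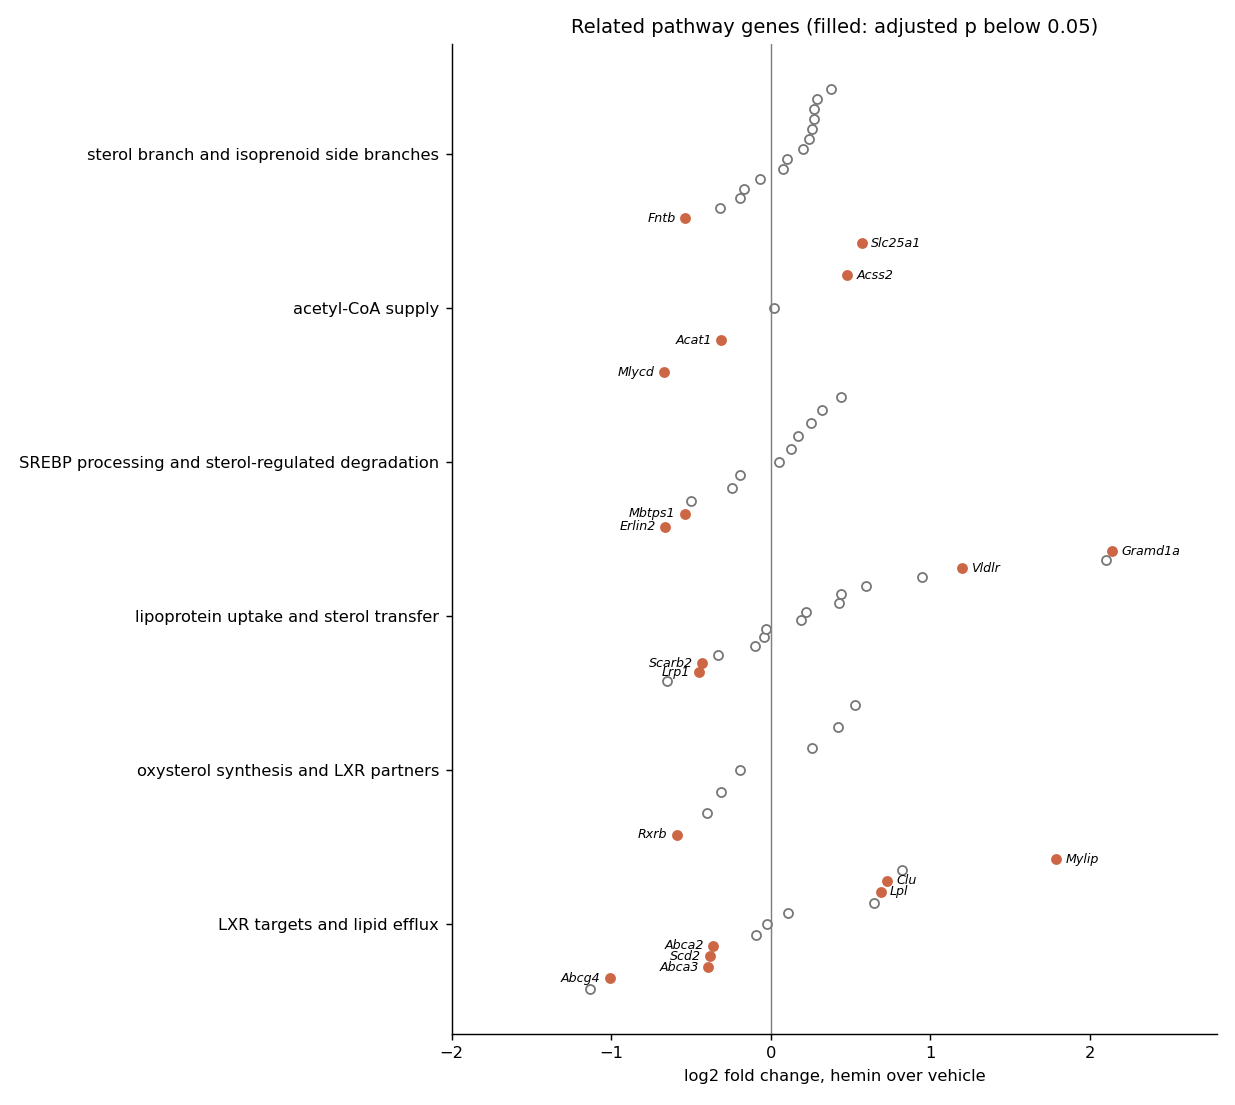
Log2 fold change of hemin over vehicle for related genes in 6 lists; each point is a gene, filled and named where its adjusted p was below 0.05. Gramd1a, Mylip and Vldlr lie farthest to the right among the called genes, and Abcg4 and Mlycd farthest to the left.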

How the data were processed

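RNA-seq was measured in 3 vehicle and 3 hemin libraries, with groups taken from sample titles. Bowtie 0.12.2, RSEM and the builds mm8 and mm9 are named, without a role, in the submitters' processing notes. The sources used here do not give annotation, trimming or strand. Per the file headers, the authors' tables give, per transcript, expected counts (estimated reads, not scaled for depth) and FPKM, scaled by the authors by length and library size. They list only values above 0, so a missing gene was set to 0. Both were summed per gene, and 18711 of 18743 genes matched a symbol in RefSeq's GRCm38.p6 table. Tables of unannotated features were not used.

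Expected counts were rounded and tested in R 4.3.3 with edgeR 4.0.16 (filterByExpr by group, TMM, glmQLFit and glmQLFTest, two-sided, no covariates, Benjamini-Hochberg over 12779 genes). The standard error is the log2 fold change divided by the square root of F. Alternatives were DESeq2 1.42.0, limma 3.58.1 on log2(FPKM + 1) or log2(FPKM + 0.1) for genes of at least 0.5 mean FPKM or unfiltered, other scalings and count filters, each library left out, and the replicate number as a block. The edgeR and other fits were also run on simulated counts, and the outcome is not reported here. Replicates differed by more than counting noise (chi-square per degree of freedom 5.44 to 23.5 within groups), so none was treated as a copy of another library, which does not show that they are separate cultures.

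Members and lists were chosen with earlier results of these data known. All members are named, with values per library for those called, and values per library are also given for further members, chosen after their values were seen. From each related list up to 4 called genes per direction are named. Overlapping exons come from GENCODE vM21, by name and strand only. Some genes of the pathway and of the related lists are not reported here.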

Additional observations from a re-analysis of the deposited data

How the results depend on the processing

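Whether the replicate numbers mark pairs cannot be settled with 3 libraries per group. Deviations of same-numbered libraries from their group means correlated at 0.0595, 0.12 and 0.167, and those of differently numbered libraries at -0.134 to 0.0247. Each library correlated best with its own number. With the replicate number as a block, 3728 genes were called against 4077 without it, and of the cholesterol genes only the call of Pmvk was lost (adjusted p = 0.0624), and of the related genes those of Acss2 (0.0909) and Acat1 (0.0506). Scaling by library totals alone gave 1715 higher and 2582 lower genes (39.9% higher, against 50.8% with TMM), 4 higher and 4 lower members, with 1 lower gene of uptake, transport and storage (Npc1, adjusted p = 0.047).

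Limma on FPKM called 1 synthesis enzyme higher in each of its 3 settings, 4 related genes higher with a pseudocount of 1 or 0.1 and the filter, and 1 gene of uptake, transport and storage higher with 0.1. Leaving out 1 library at a time gave 1442 to 2213 higher and 1109 to 2317 lower genes over all, where the lower counts of 1136 and 1109 came from leaving out vehicle replicates 1 and 2. It gave 1 to 7 higher and 0 to 2 lower synthesis enzymes, 0 to 2 higher genes of SREBP control, 1 to 2 higher genes of uptake, transport and storage, and 4 to 9 higher and 4 to 16 lower related genes. The calls of the efflux genes stayed at 0 in each alternative, though Abcg1 was not tested in all of them. It fell below the filter of at least 50 counts in 3 libraries and below that of limma.

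Direction turned only in members that were not called. Idi1 went to -0.04 with totals alone and -0.03 in the 3 limma settings, and ranged from -0.06 to 0.20 with 1 library left out. Ebp went to -0.08 with totals alone, -0.00 with DESeq2, -0.03 without a filter and with the block, and -0.08 or -0.10 with limma, and ranged from -0.26 to 0.23 with 1 library left out. Apoe went to -0.01 with limma and ranged from -0.20 to 0.37 with 1 library left out. The same ranges were -0.41 to 0.02 for Mvk, -0.30 to 0.01 for Dhcr7, -0.18 to 0.03 for Srebf2 and -0.23 to 0.10 for Abca1. The cause of these turns was not tested. With 24 to 30 counts per library, depth limits what can be seen of Abcg1.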
